A study of Mus musculus with 2 samples.

Results

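The cells described here are 150 keratinocytes of the mouse tongue, chosen by measured values: among 2407 kept barcodes they had the most UMIs (unique molecular identifiers, counted transcripts) of Prg4, Slit2, Kif26a and Trabd2b together, per 10000 of the cell. They came from a single-cell RNA sequencing series of 4545 barcodes, in which tongue epithelium of male B57BL/6 mice aged 8 to 12 weeks was taken at ZT12 or at ZT0, Zeitgeber time being hours after lights on. No genotype or treatment other than the time was given in the labels. Per the labels' protocols, TrypLE, a trypsin-like enzyme, released the cells from minced epithelium, and a sort against the dye 7-AAD left out dying cells before droplet libraries were made. Each time was 1 library, whose number of mice the labels do not state, and a difference between the times therefore has no replicate check. Kept barcodes had at least 500 genes and 5000 UMIs, under 10% mitochondrial UMIs, under 10 UMIs per 10000 of the basal-layer genes Col17a1, Itga6 and Itgb4 together, and under 10 per 10000 of Krt36, a hair-type keratin of filiform papillae. This left 1501 cells at ZT12 and 906 at ZT0, of which 82 and 68 were members.

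The dorsal tongue is covered by a stratified epithelium that renews from a basal layer and rises into papillae. Between papillae, cells leaving the basal layer turn on the mucosal keratins Krt4 and Krt13, while papilla columns make other keratins, among them hair-type ones in the filiform papilla. The 4 genes of the rule act largely at or outside the cell surface: Slit2 is a secreted guidance ligand for Robo receptors, Trabd2b (also called Tiki2) is a membrane protease that inactivates Wnt ligands, Prg4 is the lubricating proteoglycan lubricin, and Kif26a is an atypical kinesin that lacks motor activity.

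The working name of these cells puts Prg4 and Slit2 first, and the counts did not bear it out. Of the rule's UMIs in the 150 members, Trabd2b gave 62.5% (602 UMIs in 132 cells) and Kif26a 26.9% (259 UMIs in 105 cells). Slit2 gave 8.00%, or 77 UMIs in 38 cells. Prg4 gave 2.60%, or 25 UMIs, all of them in 2 cells of the ZT12 library. Trabd2b was the leading gene in 95 members, Kif26a in 44, Slit2 in 9 and Prg4 in 2. A single rule gene was seen in 46 members, 2 genes in 81, 3 genes in 23 and all 4 in none. The cells are therefore called Trabd2b and Kif26a cells below, or members. Both Prg4 cells had no Trabd2b UMI, as the stacked values by cell show.

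**Figure D1:**
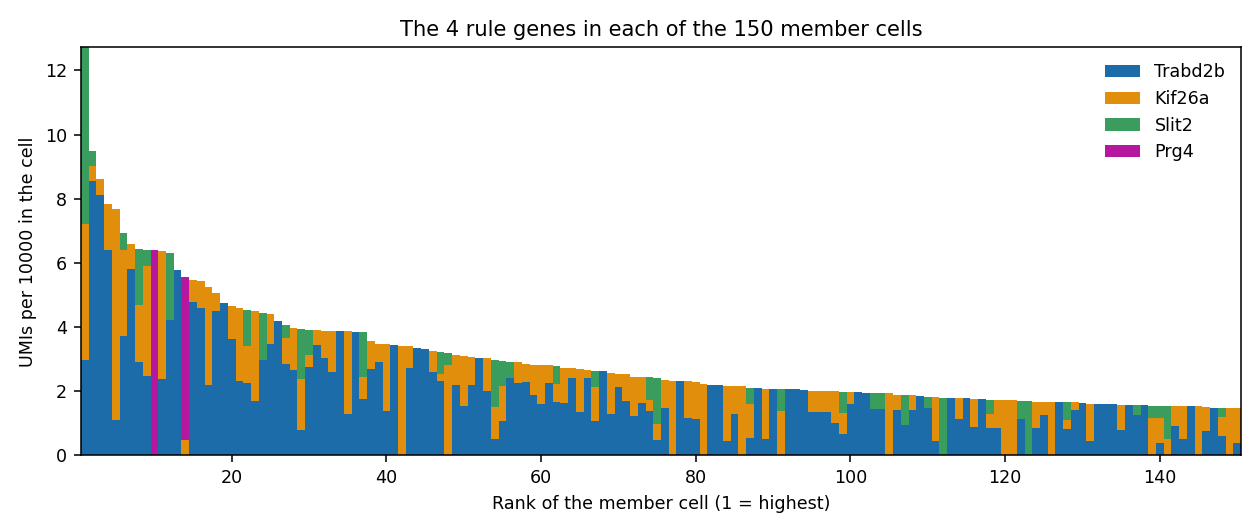
UMIs per 10000 of the 4 rule genes in each of the 150 members, ranked from 1 (highest) on the x axis and stacked by gene. Trabd2b and Kif26a make up most bars across the ranking, and Prg4 appears in 2 cells only.

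The value that chose the members lay between 1.48 and 7.84 UMIs per 10000 at ZT12 (median 2.33) and between 1.49 and 12.7 at ZT0 (median 2.48). It rested on few molecules, with a median of 5 rule UMIs per member at ZT12 and 6.5 at ZT0, and 11 of 82 and 2 of 68 members had at most 2. The cells ranked 148 to 150 had 1.486, 1.484 and 1.484 per 10000 (5, 3 and 4 rule UMIs), and those ranked 151 to 153 had 1.481, 1.474 and 1.471, so no gap marked the limit. Of the 2407 kept cells, 1592 had no rule UMI. Members were shallower than the other kept cells, with median totals of 19228 UMIs at ZT12 and 23274 at ZT0 against 29562 and 35521. Doublets, droplets that hold 2 cells, were not removed. No member shared a barcode with the other library, and 2 barcodes were shared in all.

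Members were 5.46% of kept cells at ZT12 (exact Clopper-Pearson 95% interval 4.37 to 6.74, counting error only) and 7.51% at ZT0 (5.88 to 9.42). The intervals overlap, and the shares follow the ranking over both libraries. When every cell was thinned to 5000 UMIs before ranking, only 74 of the 150 members were chosen again and the count became 64 at ZT12 and 86 at ZT0.

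Promoters of the rule genes are shown for the 2 that matched the RefSeq table (GRCm38.p6), each from 250 bases before to 50 after the start of the gene, 5′ to 3′ on the gene's strand. Of 21 rule, marker and leading genes looked up, 12 matched, and Trabd2b, Prg4, Krt16, Krt17, Hoxc13, Dlc1, Zfp703, Defb4 and 2310046K23Rik did not. Capitals mark a match on either strand to TATAAA (held by 13.6% of the 32851 promoters of the table), the AP-1 motif TGANTCA (7.81%), the TCF/LEF motif CTTTGAT (3.73%), the E-box CACGTG (7.15%) or the GATA-factor motif GATAA (25.4%). Kif26a lies on the plus strand at chr12:112145958-112146257 and Slit2 on the plus strand at chr5:47982905-47983204.
Kif26a: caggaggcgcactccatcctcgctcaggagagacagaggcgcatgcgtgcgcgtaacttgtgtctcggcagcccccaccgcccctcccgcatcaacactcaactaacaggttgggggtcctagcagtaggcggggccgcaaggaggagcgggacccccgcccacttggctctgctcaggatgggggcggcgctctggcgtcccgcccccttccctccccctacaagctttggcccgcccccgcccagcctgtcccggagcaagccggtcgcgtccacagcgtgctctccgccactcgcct
Slit2: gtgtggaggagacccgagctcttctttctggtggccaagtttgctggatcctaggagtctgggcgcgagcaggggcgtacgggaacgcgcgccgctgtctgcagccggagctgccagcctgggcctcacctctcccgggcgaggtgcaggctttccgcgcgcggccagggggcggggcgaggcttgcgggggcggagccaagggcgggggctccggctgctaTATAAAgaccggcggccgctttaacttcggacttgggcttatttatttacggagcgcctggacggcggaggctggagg
The Slit2 window held TATAAA 28 bases before the start, and the Kif26a window held none of the 5 motifs. A match describes letters only.

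The rule genes were also set against each other. Over the 2407 kept cells, Pearson's r on log2(UMIs per 10000 + 1) was 0.31 between Trabd2b and Kif26a, 0.23 between Trabd2b and Slit2 and 0.17 between Kif26a and Slit2, while Prg4 had r between -0.01 and 0.01 with each. These are descriptions of sparse counts from cells that share a library and differ in depth. When the 150 cells highest in Trabd2b alone were taken, 117 of them were members. In them Kif26a, which that ranking did not use, was at 49.7 CPM (UMIs per 1000000 UMIs of the summed cells) against 10.9 CPM in the rest of the kept cells, and Slit2 at 15.7 against 1.66 CPM. When Kif26a alone ranked the cells, 72 of the 150 were members, and Trabd2b was at 62.0 CPM against 8.08 CPM in the rest. All 126 kept cells with a Slit2 UMI included 38 members, and had Trabd2b at 38.8 CPM against 9.13 CPM. Prg4 was seen in 4 kept cells in all, so it could not be used this way.

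The rule also left out cells in which the same genes were seen. Of the hemidesmosome-high cells, which carried 10 or more per 10000 of the basal-layer genes, 187 of 1000 at ZT12 (18.7%) and 123 of 594 at ZT0 (20.7%) reached the members' lowest value. Trabd2b was at 55.7 CPM at ZT12 and 66.4 CPM at ZT0 in those cells as a whole, between members (150 and 208 CPM) and other kept cells (2.55 and 4.12 CPM). Kif26a was at 82.6 and 71.9 CPM in members, 14.5 and 10.2 CPM in hemidesmosome-high cells and 10.3 and 8.86 CPM in other kept cells. Slit2 was at 19.4 and 26.3 CPM in members, 4.71 and 5.71 CPM in hemidesmosome-high cells and 1.18 and 1.62 CPM in other kept cells. Members themselves had a median of 2.67 and 1.68 per 10000 of the basal-layer genes, against 1.24 and 1.20 in other kept cells, so their medians stood nearer the limit of 10 that the rule set. This rested mostly on the 60 members low in Krt16, as set apart below, with medians of 6.04 and 3.96. The other 90 members had medians of 1.38 and 0.51.

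Detection was compared after each cell was thinned to 5000 UMIs, with the 23 immune-marker cells left out of the other kept cells (1411 and 823 remaining). Trabd2b was then seen in 45.1% of members at ZT12 (34.1 to 56.5) and 66.2% at ZT0 (53.7 to 77.2). In other kept cells the shares were 1.49% and 2.43%. Before thinning the shares were 84.1% and 92.6%, against 5.32% and 8.38%. As a rule gene Trabd2b helped to choose the members, so this contrast follows from the choice and is description only. In 24 cells with immune markers (median 14044 UMIs, against 21112 in members), which should lack these genes, none had Trabd2b, Kif26a or Slit2 after thinning, which allows a share of up to 14.2% by the same interval. Krt14 was seen in 25% and Krt13 in 75% of those immune-marker cells after thinning, so presence of these 2 keratins in a cell was not read as expression and their levels are given instead.

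Members were next set against the 1419 and 838 other kept cells, which describes the cells the rule chose and is not a test. Of 5681 genes with a mean of 20 CPM or more, 117 (2.06%) were at least 2-fold higher in members in both libraries and 73 (1.28%) at least 2-fold lower; with TMM scaling, which moved member ratios by -0.17 at ZT12 and -0.08 at ZT0 on the log2 scale, the numbers were 87 and 100. When thinned cells were ranked instead, 34 and 19 genes passed, of which 34 and 14 were among the 117 and 73, and the calls of Krt24, Cers4, Defb4, Krt4, Krt23, Ndufa4l2 and Fbp2 ended. The median log2 ratio of all these genes was 0.06. Members were high in stress, companion and skin-type suprabasal keratins, Id genes and guidance receptors, and low in mucosal keratins.

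**Figure D2:**
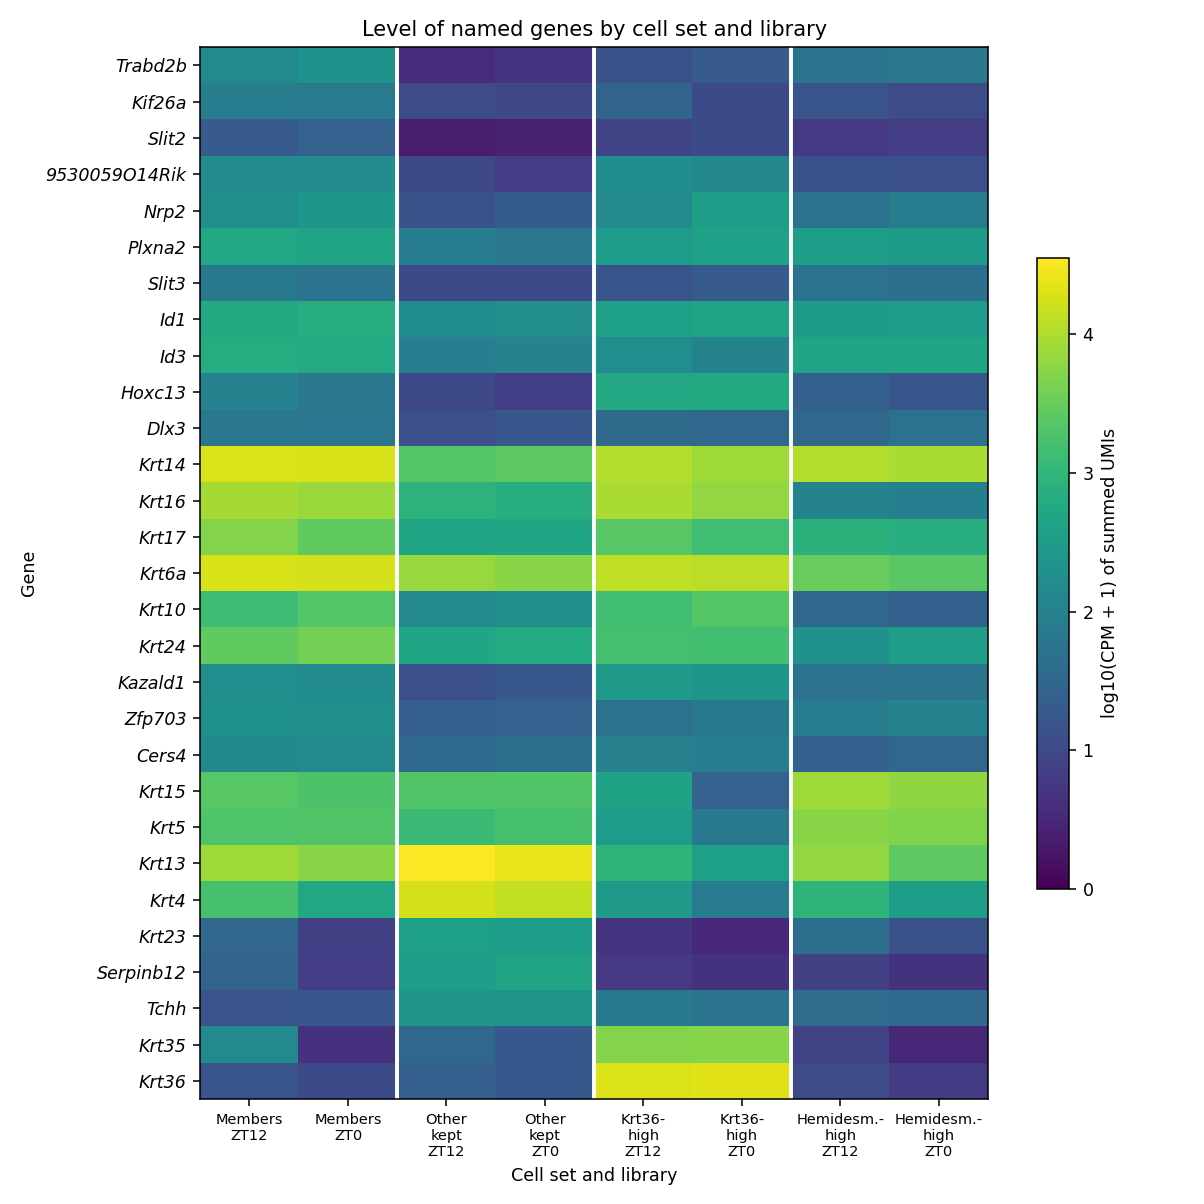
Levels of named genes as log10(CPM + 1) of UMIs summed over members, other kept cells, Krt36-high cells and hemidesmosome-high cells (columns, ZT12 left of ZT0). Krt16, Krt10 and Krt24 are high in members and in Krt36-high cells, Krt4 and Krt13 are highest in other kept cells, and Krt36 and Krt35 are high in the Krt36-high cells.

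Keratins, the intermediate filament proteins that mark epithelial layers, were among the genes that differed. Krt14, the type I keratin of basal cells, was at 19635 CPM at ZT12 and 19012 CPM at ZT0 in members, against 2237 and 2612 CPM in other kept cells, or 8.78-fold and 7.28-fold. It was also above the hemidesmosome-high cells, where it was at 10462 and 9439 CPM. Its usual partner Krt5 did not follow, at 2000 and 2111 CPM in members, 1280 and 1680 CPM in other kept cells and 5536 and 4825 CPM in hemidesmosome-high cells. Krt14 was the only 1 of 11 measured basal genes that passed the 2-fold rule. The basal-layer genes Col17a1, Itga6 and Itgb4 were held low by the rule in both sets of cells, so nothing is read from their ratios.

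Krt16, an inducible keratin of papilla, palm and injured skin, was at 8617 and 7532 CPM in members, against 870 and 672 CPM in other kept cells. Krt17, the keratin of hair companion layers, was at 5131 and 2718 CPM, against 497 and 503 CPM. Krt6a, the partner of both, was at 19230 and 18304 CPM, against 7099 and 5595 CPM. These 3 of the 4 measured stress and companion keratins passed. Among skin-type suprabasal keratins 3 of 5 were higher, Krt10 (1384 and 2173 CPM, against 141 and 186 CPM), Krt24 (2724 and 3971 CPM, against 470 and 627 CPM) and Krt80, and Krt23 was lower. The per-cell medians of Krt24 were 16 and 22.3 UMIs per 10000 in members against 0.34 and 0.37 in other kept cells, while Krt10 medians were 0.83 and 1.15 against 0.21 and 0.23, so Krt10 was high in a part of the members only.

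The promoter of Krt10, the skin-type suprabasal keratin, is given with the same motif marks and lies on the minus strand at chr11:99389315-99389614. The window listed for Krt14 lies inside the gene as GENCODE M21 gives it and is not shown.
Krt10: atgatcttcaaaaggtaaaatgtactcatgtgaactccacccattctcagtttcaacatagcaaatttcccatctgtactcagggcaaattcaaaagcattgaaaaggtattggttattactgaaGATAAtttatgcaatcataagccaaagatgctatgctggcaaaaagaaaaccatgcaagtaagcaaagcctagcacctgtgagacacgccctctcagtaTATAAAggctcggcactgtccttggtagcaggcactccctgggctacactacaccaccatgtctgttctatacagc
TATAAA stood 26 and GATAA 125 bases before the start.

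The mucosal keratins were lower in members. Krt4 was at 1667 and 533 CPM in members, against 18057 and 13799 CPM in other kept cells. Krt13 was at 8110 and 5477 CPM, against 35734 and 26651 CPM. Krt76 and Krt78 were the other 2 of the 4 genes, out of 12 mucosal suprabasal genes, that were lower by the rule. The 10 genes named as lowest included Krt4, Krt23 (31.0 and 6.43 CPM, against 390 and 339 CPM), the protease inhibitor Serpinb12 (26.7 and 5.85 CPM, against 350 and 454 CPM), Tchh, which encodes the filament-binding trichohyalin (13.4 and 16.4 CPM, against 232 and 228 CPM), and Ndufa4l2, a mitochondrial protein (61.3 and 14.6 CPM, against 664 and 523 CPM). The proton channel gene Otop3 (1.82 and 1.17 CPM, against 47.2 and 43.8 CPM) and the gluconeogenic enzyme gene Fbp2 (18.2 and 7.60 CPM, against 107 and 93.3 CPM) were also among them. Fabp5, a fatty acid binding protein, was at 5438 and 3036 CPM in members, against 12165 and 7379 CPM. Low mucosal keratins were not particular to members. In Krt36-high cells Krt4 was at 286 and 72.1 CPM and Krt13 at 905 and 389 CPM, below members. Hemidesmosome-high cells were below members too, with Krt4 at 932 and 344 CPM and Krt13 at 6436 and 2698 CPM.

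The remaining 3 of the lowest genes were the MHC class II genes Cd74, H2-Eb1 and H2-Aa. Cd74 had no UMI in members at ZT12 and 0.58 CPM at ZT0, against 41.3 and 204 CPM in other kept cells. The 24 immune-marker cells include 23 other kept cells and 0 members, and Ptprc and Cd74 were among the genes that chose them. At ZT12 Cd74 was at least 22.7-fold lower in members, with the floor set at 3 UMIs over the members. Without the immune-marker cells, an alternative chosen after seeing the data, the 3 genes had a mean under 20 CPM and were not called. Of 11 fibroblast genes 10 had no UMI in members, all but Dcn, and the list summed to 258 and 135 CPM in members, against 340 and 702 CPM in other kept cells. Summed levels in members were 92.3 and 43.9 CPM for 10 gland and simple epithelium genes, against 139 and 145 CPM, and 72.9 and 115 CPM for 6 Merkel and neural genes, against 32.5 and 61.9 CPM. They were 2.43 and 1.17 CPM for 8 endothelial genes, 1.82 and 3.51 CPM for 8 lymphocyte genes and 4.25 and 1.75 CPM for 9 muscle genes.

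Members resembled Krt36-high papilla cells in some genes and differed in others. The hair and filiform homeobox gene Hoxc13 was at 104 and 64.9 CPM in members and 9.07 and 5.93 CPM in other kept cells, and at 564 and 585 CPM in Krt36-high cells. Krt16 was at 9600 and 6634 CPM in Krt36-high cells, close to its level in members. Id3 was at 658 and 608 CPM in members but at 173 and 109 CPM in Krt36-high cells. Of the hair-type keratins, 6 of 12 had no UMI in members, 2 reached the minimum and Krt32 was lower. Dlx3, a homeobox gene of ectodermal appendages, was higher in members (61.9 and 59.1 CPM, against 12.1 and 16.4 CPM), as was its relative Dlx5.

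Guidance receptors were the next group. Of 14 measured genes of the Slit-Robo and semaphorin list 6 were higher in members and none lower, with a median log2 ratio of 0.65. Nrp2, a co-receptor for class 3 semaphorins, was at 182 and 252 CPM in members, against 12.2 and 20.1 CPM in other kept cells. Plxna2, a semaphorin receptor, was at 512 and 464 CPM, against 85.3 and 63.6 CPM. The ligand genes Slit3 (68.6 and 53.8 CPM, against 9.72 and 9.54 CPM) and Sema3c (37.6 and 57.3 CPM, against 6.59 and 13.4 CPM), the transmembrane semaphorin gene Sema6d and the netrin receptor gene Neo1 were the other 4. Sema3c was at 88.5 and 93.4 CPM in hemidesmosome-high cells, above its level in members. Nrp2 was at 139 and 361 CPM in Krt36-high cells, below members at ZT12 and above them at ZT0. After thinning Plxna2 was seen in 63.5% and 80% of Krt36-high cells and in 80.5% and 86.8% of members. Slit3 was higher in members than in other kept cells although the rule held Slit2 alone, but it was not particular to members. After thinning it was seen in 24.4% of members at ZT12 and 16.2% at ZT0. The shares of hemidesmosome-high cells were 22.6% and 17.0%. The Nrp2 promoter, shown because Nrp2 had one of the largest ratios outside the rule genes, lies on the plus strand at chr1:62703067-62703366.
Nrp2: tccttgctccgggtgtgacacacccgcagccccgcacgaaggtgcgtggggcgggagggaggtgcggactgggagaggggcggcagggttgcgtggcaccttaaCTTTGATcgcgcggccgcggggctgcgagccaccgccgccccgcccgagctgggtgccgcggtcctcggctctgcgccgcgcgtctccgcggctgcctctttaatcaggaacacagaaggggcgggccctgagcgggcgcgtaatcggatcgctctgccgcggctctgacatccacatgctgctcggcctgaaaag
CTTTGAT stood 146 bases before the start.

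Bone morphogenetic protein (BMP) signalling is read out by the Id genes, inhibitors of basic helix-loop-helix factors. Of 11 measured genes of the BMP list 5 were higher in members and none lower, with a median log2 ratio of 1.03. Id1 was at 580 and 686 CPM in members, against 166 and 177 CPM in other kept cells, and Id3 at 658 and 608 CPM, against 87.4 and 103 CPM. Id2, Id4 and the BMP signal transducer Smad5 completed the 5. Hemidesmosome-high cells had intermediate Id1 (302 and 311 CPM) and Id3 (460 and 468 CPM). In the Wnt list 4 of 25 were higher and none lower: Trabd2b, which the rule used, the ligands Wnt10a and Wnt5a, and Sostdc1, a secreted inhibitor of Wnt and BMP ligands (84.4 and 151 CPM, against 15.6 and 28.0 CPM). Sostdc1 was at 287 and 224 CPM in hemidesmosome-high cells, and Wnt10a at 19.4 and 52.6 CPM in members and 144 and 165 CPM in those cells, so both were above members there.

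The other leading genes were mixed in kind. The noncoding transcript 9530059O14Rik was at 158 and 159 CPM in members, against 9.23 and 5.71 CPM. Kazald1, a secreted Kazal-domain protein, was at 169 and 157 CPM, against 11.8 and 17.0 CPM, and the transcriptional corepressor Zfp703 at 194 and 185 CPM, against 22.1 and 26.1 CPM. The beta-defensin gene Defb4 (121 and 291 CPM, against 19.9 and 36.9 CPM), the vesicle traffic gene Dennd5b, Dlc1 and 2310046K23Rik completed the 15. Several were not particular to members. Krt36-high cells had 9530059O14Rik at 160 and 129 CPM, Defb4 at 173 and 261 CPM and 2310046K23Rik at 387 and 609 CPM. Dlc1 was at 50.3 and 69.7 CPM there, above its 38.3 and 43.3 CPM in members. Dennd5b was lower there, at 27.1 and 36.1 CPM, against 63.1 and 70.8 CPM in members. Cers4, a ceramide synthase gene among the proposed markers, was at 131 and 136 CPM in members, against 35.3 and 43.9 CPM in other kept cells. It was the only 1 of 25 ceramide and lipid genes that was higher, while Fabp5 and Sptssb were lower. The desmosomal genes Dsc3 and Dsg1a were higher among 14, and Pax9, Dlx3 and Dlx5 were higher and Barx2 and Meis1 lower among 37 epithelial transcription factor genes. In Krt36-high cells Dsg1a was at 1290 and 1394 CPM, above its 755 and 825 CPM in members. Dsc3 was lower there, at 454 and 458 CPM, against 1073 and 948 CPM in members. No gene was higher or lower among 8 Notch, 5 EGFR, 4 FGF and 11 heat shock genes or among 17 AP-1 and immediate early genes, which dissociation can induce. Of all 5681 genes 2.06% were higher and 1.28% lower, so lists this small could hold no call at those shares, and nothing is read from it.

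Across the 2407 kept cells, the genes most like the 4-gene value by Pearson's r on log2(UMIs per 10000 + 1) were 9530059O14Rik (0.55), Plxna2 (0.55), Kazald1 (0.55), Cux1 (0.54) and Id3 (0.51). The cells share 2 libraries and differ in depth.

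Levels changed along the ranking, and for some keratins they did so between the cells just inside and just outside the limit of 150. Krt14 was at 21114, 19092 and 18077 CPM in the cells ranked 1 to 50, 51 to 100 and 101 to 150, and at 10255 and 7689 CPM in those ranked 151 to 200 and 201 to 250. Krt4 ran the other way, with 400, 729 and 1945 CPM in the 3 bands of members and 2188 and 6422 CPM in the next 2. The cell ranked 114 alone held 54.0% of the Krt4 UMIs of all ZT12 members. The 1945 CPM of cells 101 to 150 rested largely on that cell, so nothing is read from the small Krt4 step at the limit. Krt13 was at 5763, 7516 and 6938 CPM in the bands of members and 14930 CPM in cells 151 to 200, and Krt17 at 3524, 3617 and 4445 CPM and then 1940 CPM. Krt16 was at 8683, 6654 and 8764 CPM in members by band and at 5646 CPM in cells 151 to 200. In the cells ranked 501 to 2407 Krt14 was at 1846 CPM and Krt4 at 17487 CPM, so the cells just below the limit lay between members and these.

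**Figure D3:**
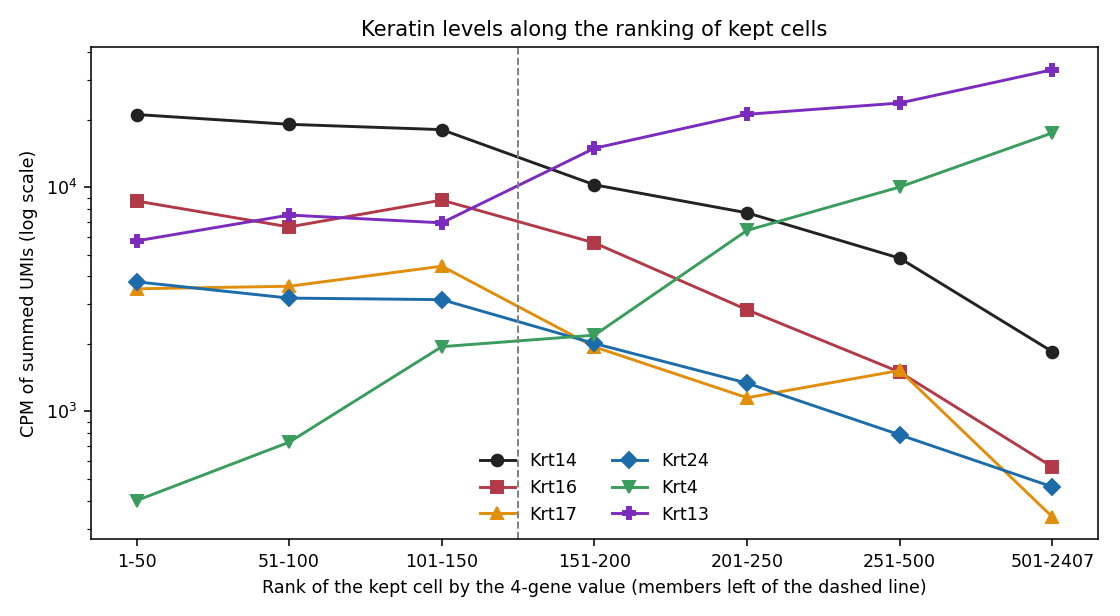
CPM of 6 keratin genes (log scale) in UMIs summed over bands of kept cells ranked by the 4-gene value, members lying left of the dashed line. Krt14, Krt16, Krt17 and Krt24 are lower and Krt4 and Krt13 higher in the last band than in members, with intermediate levels just below the limit.

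Members were not uniform. Krt16 ranged from 0 to 440 UMIs per 10000 at ZT12 (median 60.7) and from 0 to 338 at ZT0 (median 30.0). A limit of 20 per 10000, chosen after these values were seen, gave 90 Krt16-high members (55 at ZT12 and 35 at ZT0) and 60 Krt16-low members (27 and 33). A total of 7 members lay within 25% of the limit. The Krt16-high share of members was 67.1% at ZT12 (55.8 to 77.1) and 51.5% at ZT0 (39.0 to 63.8), with overlapping counting intervals. Krt16-high cells were not particular to members: 105 of 1419 other kept cells at ZT12 (7.40%) and 48 of 838 at ZT0 (5.73%) also passed the limit.

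**Figure D4:**
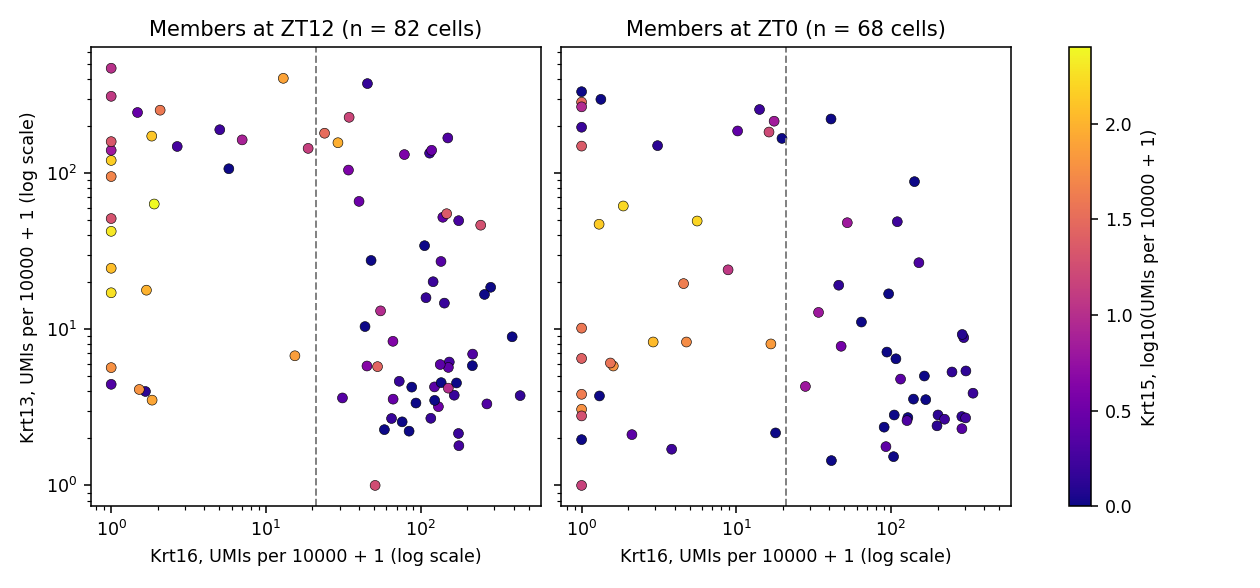
Krt16 (x axis) and Krt13 (y axis) in each member as UMIs per 10000 + 1 on log scales, ZT12 left and ZT0 right, coloured by Krt15. The dashed line is the limit of 20 per 10000, with 55 and 35 cells to its right, and cells high in Krt15 lie mostly to its left.

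Of 2875 genes with a mean of 50 CPM or more in these sums, 125 (4.35%) were at least 2-fold higher in Krt16-high than in Krt16-low members in both libraries and 73 (2.54%) at least 2-fold lower. The genes named next were chosen after their values were seen. Krt10 was at 2093 and 4358 CPM in Krt16-high members, against 26.5 and 272 CPM in Krt16-low members, and Krt24 at 3983 and 7494 CPM, against 315 and 905 CPM. Hoxc13 was at 149 and 136 CPM, against 17.7 and 3.28 CPM, and the hair keratin-associated gene Krtap3-3 at 165 and 251 CPM, against 3.54 and 1.09 CPM. Krt6b, Defb4 and the desmoglein gene Dsg1a were high in the same cells. The 2-fold higher Krt10 and Krt24 of members as a whole rested on Krt16-high members. In Krt16-low members alone the mean log2 ratio over other kept cells was -0.91 for Krt10 and -0.024 for Krt24. For Krt16 it was -1.35, which follows from the split by Krt16 itself. Defb4, 2310046K23Rik, Krt6b and Dsg1a were also lower in Krt16-low members than in other kept cells in both libraries. Krt17 was at 2825 and 632 CPM in Krt16-low members, but at 568 and 528 CPM without the highest cell of each library. Its levels in other kept cells were 497 and 503 CPM.

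Krt16-low members were higher in Krt15, Krt5, Dcn and Barx2. Krt15, a basal keratin, was at 523 and 85.5 CPM in Krt16-high members, against 5702 and 3522 CPM in Krt16-low members. Krt5 was at 1300 and 1185 CPM, against 3340 and 2917 CPM. The matrix proteoglycan gene Dcn was at 7.40 and 6.28 CPM, against 738 and 247 CPM, although the other 10 fibroblast genes had no UMI in any member. The homeobox gene Barx2 was at 83.2 and 11.3 CPM, against 499 and 338 CPM, and Col17a1, which the rule held low, at 76.7 and 31.4 CPM, against 304 and 247 CPM. Krt14 was at 25544 and 27779 CPM, against 8329 and 11382 CPM, so both sets stood above other kept cells. Of the rule genes, Trabd2b was at 172 and 256 CPM in Krt16-high members, against 108 and 165 CPM in Krt16-low members, and Kif26a at 80.4 and 84.2 CPM, against 86.7 and 61.3 CPM. Nrp2 was higher in Krt16-high members (251 and 480 CPM, against 51.3 and 53.6 CPM), and Id3 was at 596 and 603 CPM, against 775 and 611 CPM. Prg4 was at 0 in Krt16-high and at 44.2 CPM in Krt16-low members at ZT12, and both Prg4 cells were Krt16-low, with 142 and 117 Krt15 UMIs per 10000.

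ZT12 was then compared with ZT0 inside the members, the comparison the series was made for. Of 2850 genes with a mean of 50 CPM or more, 7 (0.246%) were at least 2-fold higher at ZT12 and 28 (0.982%) at least 2-fold lower, by size alone; in other kept cells 5 of 2717 genes (0.184%) were higher and 29 (1.07%) lower. Both measured evening clock outputs were higher at ZT12 in members, and all 3 measured G2/M genes, 1 of 2 interferon genes and 3 of 5 antigen-presentation genes were lower. In Krt16-high members taken alone 18 of 2822 genes (0.638%) were higher and 24 (0.85%) lower at ZT12, and in Krt16-low members 29 of 2921 (0.993%) were higher and 91 (3.12%) lower. Fewer cells of a kind and less RNA per cell cannot be told apart in such sums.

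**Figure D5:**
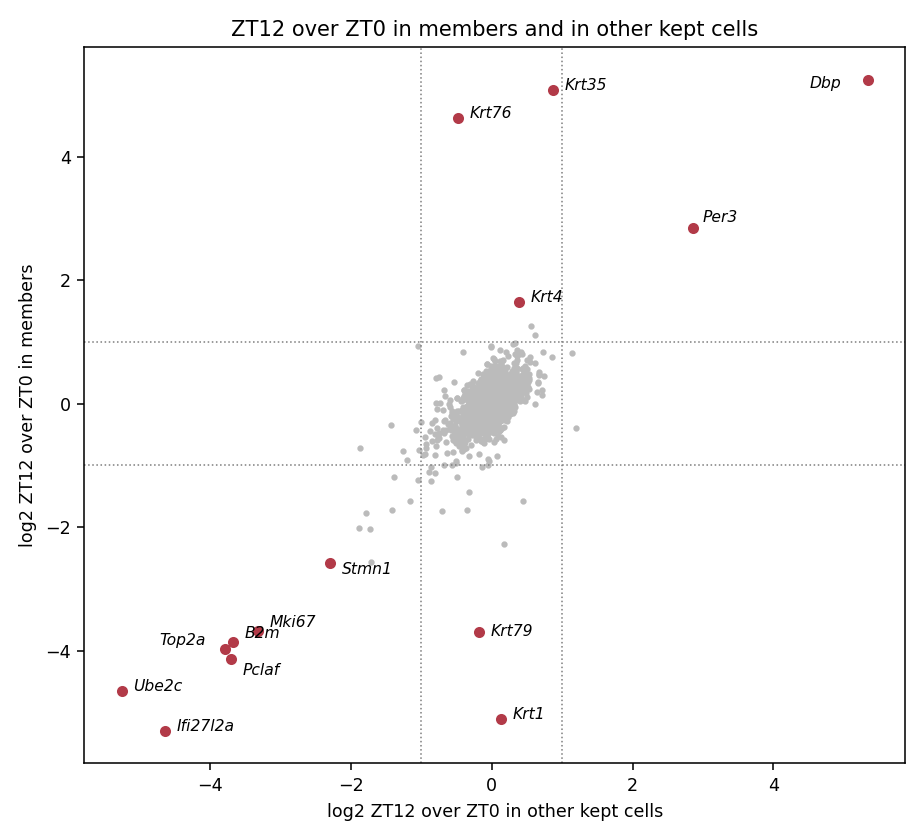
log2 ratio of ZT12 over ZT0 CPM in members (y axis) and in other kept cells (x axis) for genes with a mean of 50 CPM or more in members, dotted lines marking 2-fold. Dbp and Per3 lie at the upper right, cycling genes, B2m and Ifi27l2a at the lower left, and Krt35, Krt76, Krt1 and Krt79 lie beyond 2-fold in members but not in other kept cells.

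The molecular clock drives rhythmic output genes in most cells, with activators and repressors peaking at different times of day. Dbp, a clock-driven transcription factor, was at 126 CPM at ZT12 (95% Poisson interval 109 to 144) and 2.34 CPM at ZT0 (0.637 to 5.99) in members, a log2 ratio of 5.25, beside 5.34 in other kept cells. After thinning it was seen in 39.0% of members at ZT12 (28.4 to 50.4) and 2.94% at ZT0 (0.358 to 10.2), and before thinning in 80.5% and 5.88%. Most cells run a clock, so no cell type gave a background share, and the 4 UMIs at ZT0 are not read as expression. Per3, a period gene, was at 111 and 14.6 CPM (log2 ratio 2.84, beside 2.85), and the Dbp relative Tef at 72.3 and 5.85 CPM (3.42, beside 3.10). The repressors Nr1d2 (72.9 and 10.5 CPM) and Nr1d1 (46.1 and 14.6 CPM) were higher at ZT12 in members too. The activators Arntl (3.04 and 15.8 CPM) and Npas2 (0.607 and 3.51 CPM) and the repressor Cry1 (10.3 and 33.9 CPM) were lower, and Clock differed by -0.40 on the log2 scale. Of the clock genes named so far only Dbp, Per3 and Clock reached the mean of 50 CPM. The others were not called and rest on few UMIs, such as 5 and 27 for Arntl. Usp2, a ubiquitin protease and clock output, was at 21.9 and 12.9 CPM in members, against 90.7 and 31.6 CPM in other kept cells, and was the only 1 of 6 evening outputs lower in members than in other kept cells at both times by the 2-fold rule.

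Cycling genes were lower at ZT12, and their ZT0 levels were higher in Krt16-low than in Krt16-high members. Top2a, the topoisomerase of dividing cells, was at 9.71 and 168 CPM in members at ZT12 and ZT0, and at 9.83 and 149 CPM in other kept cells. In Krt16-low members it was at 7.08 CPM at ZT12 and 306 CPM at ZT0, and in Krt16-high members at 11.1 and 8.80 CPM. Mki67, the proliferation antigen Ki-67, was at 6.68 and 97.7 CPM in members, and in Krt16-low members at 15.9 and 176 CPM. In Krt16-high members Mki67 was at 1.85 and 7.54 CPM, from 2 and 6 UMIs. After thinning it was seen in 1.22% of members at ZT12 (0.0309 to 6.61) and 16.2% at ZT0 (8.36 to 27.1), against 2.20% and 12.4% of other kept cells, and in 12.5% of the 24 immune-marker cells, which may themselves divide. Ube2c, Pclaf, Stmn1 and Tubb5 were also among the 10 genes lowest at ZT12. Of 6 measured S-phase and 10 measured G2/M genes, none was 2-fold higher or lower in members than in other kept cells at both times. Of all genes 2.06% were higher and 1.28% lower, so lists this small could hold no call, and nothing is read from it. With 27 Krt16-low members at ZT12 and 33 at ZT0, few cells carry these sums: Top2a had a UMI in 10 members at ZT12 and 18 at ZT0, and the highest cell held 21.6% of its ZT0 UMIs.

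Antigen-presentation genes and 1 of the 2 measured interferon genes were also lower. Ifi27l2a, an interferon-induced gene, was at 7.89 and 349 CPM in members (log2 ratio -5.30, beside -4.65 in other kept cells), and B2m, the MHC class I light chain, at 11.5 and 180 CPM (-3.85, beside -3.67). These 2 genes were lower at ZT12 in Krt16-high and in Krt16-low members alike (Ifi27l2a -5.05 and -5.57, B2m -3.91 and -3.67). The other interferon gene, Ifitm3, was at 166 and 212 CPM, and its log2 ratio was -1.06 in Krt16-high and 0.35 in Krt16-low members. H2-K1 and H2-D1, class I heavy chains, were at 103 and 354 CPM and at 137 and 311 CPM. None of 10 heat shock genes was lower at ZT12 in members, beside 0.982% of all genes, so nothing is read from that. Among 13 immediate early genes 2 were lower at ZT12 in members, Fos (515 and 1173 CPM) and Atf3 (93.5 and 313 CPM). Both went the other way in Krt16-high members: the log2 ratio of Fos was 0.40 there and -1.53 in Krt16-low members, and Atf3 was at 67.5 and 8.80 CPM (73 and 7 UMIs) there and at 143 and 578 CPM in Krt16-low members. The median log2 ratio of the list was -0.52 in members and 0.16 in Krt16-high members alone. The part of dissociation in this was not tested.

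Keratin differences between the times rested on few members. Krt35, a hair-type keratin, was at 151 CPM at ZT12 and 3.51 CPM at ZT0, with UMIs in 19 and 2 members, and the highest cell held 53.0% of the ZT12 UMIs. Krt76, a keratin of palate and oral mucosa, was at 168 and 5.85 CPM, but 1 cell held 97.1% of its ZT12 UMIs, and without the highest cell of each library its log2 ratio was 0.59 in place of 4.63. Krt1, the skin-type partner of Krt10, was at 7.29 and 284 CPM, with 92.4% of the ZT0 UMIs in 1 cell, and its ratio was -1.82 in place of -5.11 without the highest cells. Krt79 (7.29 and 106 CPM) and Krt4 (1667 and 533 CPM) had 50.5% and 54.0% of their UMIs in the highest cell of the library where they were higher. The taurine transporter gene Slc6a6 (281 and 129 CPM) and Fam76a (71.0 and 29.2 CPM) were the other 2 genes higher at ZT12. Other genes high in members differed less between the times: Krt16 was at 8617 and 7532 CPM, Krt14 at 19635 and 19012 CPM and Nrp2 at 182 and 252 CPM, each within 2-fold. Of the rule genes, whose levels follow the choice of members, Trabd2b, Kif26a and Slit2 were within 2-fold. Prg4 had 25 UMIs at ZT12 and 0 at ZT0. Krt17 was at 5131 and 2718 CPM, also within 2-fold, and its log2 ratio was 0.31 in Krt16-high and 2.16 in Krt16-low members. A single cell held 81.0% of the ZT12 Krt17 UMIs of Krt16-low members, and without the highest cell of each library the ratio was 0.10 there, at 568 and 528 CPM.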

How the data were processed

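The deposited values were raw UMI counts per gene and barcode, taken as the authors deposited them, without correction for free RNA. Cell Ranger 2.1.1 and mm10 are named in the submitters' processing notes, whereas Cell Ranger 4.0.0 wrote the matrices, per the file headers. The libraries held 67901140 UMIs in 2819 barcodes at ZT12 and 49826740 UMIs in 1726 barcodes at ZT0. After the gene, UMI and mitochondrial limits given in the report, 2553 and 1525 cells were left, and after the limits on basal-layer genes and Krt36, 1501 and 906. The 150 members were the cells with the highest value over both libraries, and no doublet caller was run.

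UMIs were summed over the cells of a set within each library and scaled to CPM. The log2 ratio used CPM + 1. For members against other kept cells a gene needed a mean of 20 CPM and a 2-fold ratio in the same direction in both libraries; for ZT12 against ZT0 it needed a mean of 50 CPM and a 2-fold ratio. Since each time was 1 library, genes were called by size alone, without p-values. Intervals are exact 95% Poisson or Clopper-Pearson intervals and, like floors of 3 UMIs, cover counting error only. The size rules were tested on simulated data. The genes named were the rule genes and markers, the 15 highest and 10 lowest called genes by the smaller of the 2 library ratios, up to 4 genes of each list with the largest ratio, the 10 genes highest and lowest at ZT12, clock genes, and up to 3 genes of each list for time; others are said to be chosen after their values were seen or complete a count. The members and the lists were chosen with earlier results of these data known. Positions come from GENCODE M21, where 32160 of 32285 gene identifiers were found, and promoters from RefSeq. Python 3.11.15, numpy 2.4.6, pandas 2.3.3, scipy 1.17.1, matplotlib 3.10.9 and, for TMM factors, edgeR 4.0.16 were used. Alternatives covered the number of members, depth, mitochondrial limit, thinning, scaling, pseudocount and minimum CPM. A further clock gene is not reported here.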

Additional observations from a re-analysis of the deposited data

Results flagged for a closer look

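Krt1 and Krt76 stood out because their ZT12 over ZT0 ratio in members went against that in other kept cells. The log2 ratio in members minus that in other kept cells was -5.23 for Krt1 and 5.11 for Krt76, and the difference was not tested. A single cell held 92.4% of the Krt1 UMIs of members at ZT0 and 97.1% of the Krt76 UMIs of members at ZT12.

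Cells outside the kept set also reached the members' lowest value. Among hemidesmosome-high cells 18.7% did at ZT12 (16.3 to 21.3) and 20.7% at ZT0 (17.5 to 24.2). Among Krt36-high cells 8 of 52, or 15.4%, did at ZT12 (6.88 to 28.1), above the 5.77% that a count of 0 allows, and 3 of 25 did at ZT0.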

How the results depend on the processing

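No paired analysis was possible because each time has 1 library. In the report 117 genes were higher and 73 lower in members, 7 higher and 28 lower at ZT12, and the log2 ratio of the member shares was -0.46. Ranking after thinning to 5000 UMIs gave 34, 19, 4 and 58 genes in the same order and a share ratio of -1.15. No minimum CPM gave 250, 291, 681 and 1095, and a minimum of 100 CPM gave 36, 22, 2 and 17. With 250 members 42 genes were lower in members and 45 lower at ZT12, with mitochondrial UMIs under 5% 12 were higher and 56 lower at ZT12, and in the 23 members with 3 or more of the 4 genes 133 were lower in members and 106 higher and 121 lower at ZT12. Among alternatives chosen after seeing the data, Krt16-high members alone gave 193 higher and 153 lower in members and 18 higher at ZT12, Krt16-low members alone 29 higher and 91 lower at ZT12, and ranking by Trabd2b alone 15 higher and 65 lower at ZT12.

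Among results above the minimum CPM, reversals in members against other kept cells were seen in Krt16-low members alone. They were Krt10 -0.91, Krt16 -1.35, Krt24 -0.024 and the skin-type suprabasal list median -0.024. The Krt16 value follows from the split by Krt16 itself. Below the minimum, Defb4 was also lower in Krt16-low members than in other kept cells (8.85 and 4.38 CPM, against 19.9 and 36.9 CPM). The same held for 2310046K23Rik (5.31 and 8.75 CPM, against 22.1 and 28.6 CPM). For ZT12 against ZT0, Krt16-high members alone had Pclaf 1.09, Stmn1 0.32, Top2a 0.30, Tubb5 0.24 and Ube2c 0.94, at few UMIs. Krt76 was at -0.11 with 100 members and -0.14 when Krt36-high cells were not removed, and Krt4 at -0.40 in members with 3 or more genes. The cause was not tested. Under every alternative that left them above the minimum CPM, 16 of 27 gene results on members and 13 of 17 on time (not Krt4, Slc6a6, Fam76a and Tubb5) kept their call and direction, but 13 of the 17 fell below the minimum in at least 1 alternative. Results on members that fell below the minimum were left out of this comparison without being counted. Hoxc13, Defb4 and 2310046K23Rik in Krt16-low members alone were among those left out. The call of Krt17 (1.42) ended in Krt16-low members alone, where 1 cell held 81.0% of its ZT12 UMIs. Without the highest cell of each library Krt17 was at 568 and 528 CPM there, against 497 and 503 CPM in other kept cells. Thinned ranking ended the call of Cers4, Defb4, Fbp2, Krt23, Krt24, Krt4 and Ndufa4l2, and the small number of rule UMIs per cell limits who is a member.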
